A study of Mus musculus with 7 samples.

Results

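The genes described are 37 listed genes of glycolysis, the pentose phosphate pathway and the response to low oxygen, of which 34 were measured among the 18193 genes of the array table. A gene counted as measured when at least 1 probe set carried its symbol and no other. Where several qualified, the brightest one by its mean across the 7 arrays stood for the gene. Gpi1, Eno1 and G6pdx had no such probe set and were not analysed here. Of the 34 measured genes, 5 act in glucose entry, 9 in upper glycolysis, 5 in lower glycolysis, 7 in pyruvate and lactate handling, 3 in the pentose phosphate pathway and 5 in oxygen sensing and the hypoxia response.

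The study set leukemic cells of TEL-JAK2 mice against those of ICN1 mice. TEL-JAK2 is a fusion that keeps the kinase JAK2 active, and ICN1 is the active intracellular form of the receptor NOTCH1. TEL-JAK2 cells came from the thymus (4 arrays) and ICN1 cells from the bone marrow (3 arrays). All mice were of the C57Bl/6 strain and were terminally ill with leukemia. Each genotype was sampled in 1 tissue, so genotype and tissue cannot be told apart in any difference given here. The cells were a suspension made by mechanical dissociation, and the labels name no sorting step. The promoter or delivery route of either oncogene, the age of the mice and the mouse behind each array are stated by none of the labels. Each array's title carries a leukemia number of its own, and no label says whether these numbers mark separate mice. The p-values therefore measure the spread between these arrays.

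Glycolysis splits glucose into pyruvate, which is either reduced to lactate and exported or converted to acetyl-CoA in the mitochondria by pyruvate dehydrogenase. The pentose phosphate pathway branches off at glucose 6-phosphate and yields NADPH and the ribose of nucleotides. At low oxygen the prolyl hydroxylases lose activity and the transcription factor HIF-1 accumulates, which raises the transcription of many glycolytic genes by binding the letters ACGTG or GCGTG. Proliferating T cells and T-cell leukemias are known for high glycolytic flux, in which MYC, a factor that binds the related letters CACGTG, also takes part.

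The promoters of the measured genes are shown for the called ones, because these letters are the site through which HIF-1 and MYC are known to act on the pathway. A gene was called when its Benjamini-Hochberg adjusted p in limma, taken over all 18193 genes, was under 0.05. Windows run from 250 bases before to 50 bases after a transcript start and were taken from RefSeq on GRCm38.p6. The letters ACGTG (with GCGTG) and those of CACGTG are in capitals, read on either strand, so that the capitals of GCGTG on the opposite strand read CACGC. The letters of CACGTG hold ACGTG on both strands.
Slc16a1, chr3:104638414-104638713, + strand: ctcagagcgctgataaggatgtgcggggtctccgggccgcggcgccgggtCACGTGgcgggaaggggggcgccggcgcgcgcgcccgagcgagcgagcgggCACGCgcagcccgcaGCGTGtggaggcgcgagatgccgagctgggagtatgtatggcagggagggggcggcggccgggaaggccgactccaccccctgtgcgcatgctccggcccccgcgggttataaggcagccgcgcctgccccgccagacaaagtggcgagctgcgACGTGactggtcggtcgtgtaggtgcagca
Tkt, chr14:30548881-30549180, + strand: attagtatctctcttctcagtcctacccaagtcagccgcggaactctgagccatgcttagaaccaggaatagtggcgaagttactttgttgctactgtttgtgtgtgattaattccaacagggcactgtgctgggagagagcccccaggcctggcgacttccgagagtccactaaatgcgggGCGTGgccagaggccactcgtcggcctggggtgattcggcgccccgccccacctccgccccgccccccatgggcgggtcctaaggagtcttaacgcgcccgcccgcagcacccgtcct
Pdk3, chrX:93832101-93832400, - strand: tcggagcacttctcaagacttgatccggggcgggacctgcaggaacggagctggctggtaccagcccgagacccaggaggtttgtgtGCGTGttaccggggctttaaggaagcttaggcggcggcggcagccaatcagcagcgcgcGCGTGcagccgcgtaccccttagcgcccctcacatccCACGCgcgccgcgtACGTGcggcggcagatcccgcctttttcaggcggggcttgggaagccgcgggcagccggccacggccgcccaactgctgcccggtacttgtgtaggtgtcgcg
Hif1a, chr12:73907617-73907916, + strand: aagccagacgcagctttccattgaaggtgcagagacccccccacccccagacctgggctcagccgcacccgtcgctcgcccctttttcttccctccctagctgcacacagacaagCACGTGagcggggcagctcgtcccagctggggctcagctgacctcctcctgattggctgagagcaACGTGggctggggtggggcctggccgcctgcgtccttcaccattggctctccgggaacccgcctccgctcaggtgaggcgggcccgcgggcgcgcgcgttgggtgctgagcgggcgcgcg
Pfkfb3, chr2:11553880-11554179, - strand: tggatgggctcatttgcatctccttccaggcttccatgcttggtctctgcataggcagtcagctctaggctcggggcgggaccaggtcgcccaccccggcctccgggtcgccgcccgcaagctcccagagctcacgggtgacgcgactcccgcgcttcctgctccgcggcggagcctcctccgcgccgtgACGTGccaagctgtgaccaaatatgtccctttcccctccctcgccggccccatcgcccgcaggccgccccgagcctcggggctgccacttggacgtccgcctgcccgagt
Pfkfb3, chr2:11502041-11502340, - strand: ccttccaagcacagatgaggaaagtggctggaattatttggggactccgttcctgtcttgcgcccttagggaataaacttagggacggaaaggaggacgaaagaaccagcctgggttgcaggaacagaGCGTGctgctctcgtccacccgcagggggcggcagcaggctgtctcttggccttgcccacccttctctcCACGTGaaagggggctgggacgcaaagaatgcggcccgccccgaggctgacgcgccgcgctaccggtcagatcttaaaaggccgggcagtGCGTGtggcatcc

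A window was found for 33 of the 34 measured genes, 48 windows in all, and Slc2a3 is named without one. Of these 48 windows, 79.2% held ACGTG or GCGTG on either strand, against 43.8% of all 32851 windows of the table. CACGTG stood in 16.7% of the 48 windows, against 7.15% of all windows. These shares were not set against windows of like base composition, and some windows of the same gene overlap. ACGTG or GCGTG stood in a window of 5 of 5 called genes and of 25 of 28 uncalled ones. CACGTG stood in windows of Slc16a1, Hif1a and Pfkfb3, and of 5 uncalled genes. A match describes these letters only, and no binding was measured.

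The arrays were close to each other within a group. Over the 45037 probe sets, Pearson's r lay at 0.975 to 0.989 among the TEL-JAK2 arrays, 0.973 to 0.982 among the ICN1 arrays and 0.921 to 0.944 between the groups. T-lineage markers averaged 12.00 to 12.12 on the log2 scale in TEL-JAK2 and 11.40 to 11.55 in ICN1, with 7 of 10 called higher, 1 lower and 0 of 10 with a TEL-JAK2 mean below the median gene. The called markers of other cells were all lower in TEL-JAK2 in the 3 lists measured. The mean of 11 erythroid markers was 5.86 to 6.17 in TEL-JAK2 against 11.27 to 11.54 in ICN1, with 9 called lower, and 8 of the 11 had a TEL-JAK2 mean below the median gene (6.34). The mean of 12 granulocyte markers was 5.11 to 5.54 against 6.01 to 7.61 (5 called lower), and that of 11 monocyte and macrophage markers 6.39 to 8.66 against 8.89 to 10.25 (5 called lower). The part of these cells in the differences below was not tested. In bulk samples, fewer cells of a type and less RNA per cell cannot be told apart.

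The arrays were checked with sex-linked genes. Xist, transcribed from the inactive X chromosome, read 13.25, 13.12, 13.36 and 5.19 in TEL-JAK2 replicates 1 to 4 and 11.51, 11.78 and 12.09 in ICN1 replicates 1 to 3. The Y-linked gene Eif2s3y read 3.21, 3.18, 3.29 and 10.23 in TEL-JAK2 and 8.93, 9.41 and 3.25 in ICN1. ICN1 replicates 1 and 2 thus held both transcripts at once, and every other array held 1 of them at a high level. Called results of the 34 genes, and of some related genes, are therefore also given with ICN1 replicate 3 as the sole ICN1 array. This setting was added after the data were seen. In the setting with array weights, ICN1 replicate 3 had the lowest weight of all arrays (0.563). The fit with ICN1 replicate 3 alone has no spread within ICN1 and assumes that its array varies like the TEL-JAK2 arrays. It called 2596 genes in all and 1 of the 34, Slc16a1.

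Of the 34 genes, 6 were called, 2 higher (Hif1a and Pfkfb3) and 4 lower (Slc2a3, Slc16a1, Pdk3 and Tkt) in TEL-JAK2. That is 17.6%, below the 24.1% of all genes that were called (11.9% higher and 12.2% lower). The groups did not overlap in 12 of the 34 genes, 2 with TEL-JAK2 above and 10 with TEL-JAK2 below ICN1. That is 35.3%, close to the 34.3% of all genes, of which 18.4% had TEL-JAK2 above and 15.9% TEL-JAK2 below ICN1. The median difference, TEL-JAK2 minus ICN1, was -0.17 on the log2 scale over the 34 genes and 0.04 over all genes. By absolute size the median difference was 0.42, against 0.23 over all genes. An unadjusted p under 0.05 was reached by 12 of the 34 (35.3%), close to the 36% of all genes. Tested singly, 14 of the 75 probe sets of these genes were called (18.7%, 4 higher and 10 lower), against 22.5% of all probe sets with 1 symbol. The plot of differences by role sets the 34 genes side by side.

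**Figure D1:**
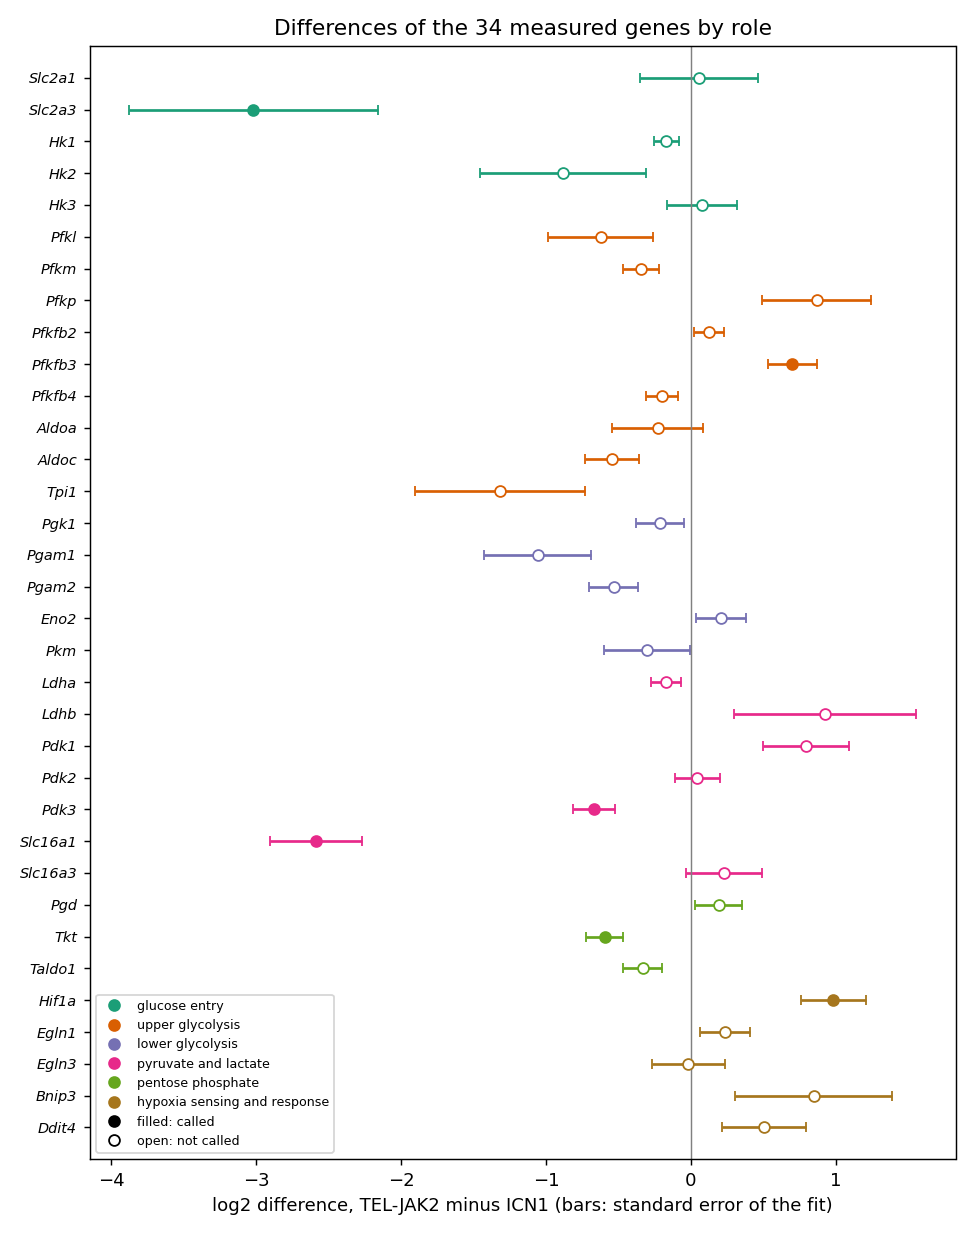
Difference in log2 expression, TEL-JAK2 minus ICN1, for each of the 34 measured genes, ordered from glucose entry to the hypoxia response, with the standard error of the limma fit (4 TEL-JAK2 and 3 ICN1 arrays). Filled points are the 6 called genes. Slc2a3 and Slc16a1 lie furthest to the left at -3.02 and -2.59, and most of the other genes lie within 1 log2 of 0.

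The scaling sets where 0 lies. Each array was also centred on the average of 4 genes of the CD3 complex (Cd3d, Cd3e, Cd3g, Cd247), of which 3 were called higher in TEL-JAK2. This CD3 centring lowered all differences equally (-0.62) and put the median gene at -0.58. Under it 19 of the 34 were called, 0 higher and 19 lower, while over all genes 787 were called higher and 11410 lower (6.45% of calls higher, against 49.4%). Relative to the median gene, the genes kept their order, since the shift is the same for all.

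Glucose enters through transporters and is trapped by hexokinases. Slc2a3, the high-affinity glucose transporter GLUT3, was lower in TEL-JAK2. It read 6.02, 7.78, 5.11 and 8.98 in the 4 TEL-JAK2 arrays, against 9.82, 10.00 and 10.16 in the 3 ICN1 arrays. The groups did not overlap, and the TEL-JAK2 arrays spread over 3.87 log2 while the ICN1 arrays spread over 0.34. The mean was 6.97 ± 1.74 in TEL-JAK2 (SD, n = 4) and 9.99 ± 0.17 in ICN1 (SD, n = 3), a difference of -3.02 ± 0.86 (SE) or 8.10-fold lower (limma adjusted p = 0.0408). The other 3 probe sets of Slc2a3 were called lower as well (-1.84, -0.83 and -2.67). The probe set used can match more than 1 transcript by its design name. Without such probe sets the difference was -1.84 (limma adjusted p = 0.0106). The call was lost in 6 of the 7 fits that left out 1 array, all but that without TEL-JAK2 replicate 4, with limma adjusted p from 0.0585 to 0.102, and with all 7 arrays under trend and robust moderation (limma adjusted p = 0.0516). With ICN1 replicate 3 alone the difference was -3.19 (limma adjusted p = 0.228).

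Slc2a1, the broadly expressed transporter GLUT1, was not called. It read 7.63, 8.83, 7.47 and 8.91 in TEL-JAK2 and 8.04, 7.88 and 8.55 in ICN1, so the ICN1 arrays lay inside the TEL-JAK2 range. The difference was 0.06 ± 0.41 with a 95% interval of -0.90 to 1.01. The hexokinases were not called. Hk1, the constitutive isoform, differed by -0.17 ± 0.09 without overlap between the groups, and its other probe set was called lower (-0.57, limma adjusted p = 0.0149 over all probe sets). Hk2, the inducible isoform, differed by -0.88 ± 0.57 and Hk3, the myeloid isoform, by 0.07 ± 0.24. Hk2 read 5.27 to 7.37 in TEL-JAK2 and 6.59 to 8.22 in ICN1, a wide spread in both groups.

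Upper glycolysis runs from phosphofructokinase, the committing step, to the triose phosphates. Pfkfb3, whose product makes fructose 2,6-bisphosphate and so activates phosphofructokinase, was the 1 called gene of the 9 and was higher in TEL-JAK2. It read 7.03, 7.38, 7.12 and 7.16 in TEL-JAK2, against 6.22, 6.34 and 6.86 in ICN1. Every TEL-JAK2 array lay above every ICN1 array, and ICN1 replicate 3 was nearest to them. The mean was 7.17 ± 0.15 in TEL-JAK2 (SD, n = 4) and 6.47 ± 0.34 in ICN1 (SD, n = 3). The difference of 0.70 ± 0.17 is 1.63-fold (limma adjusted p = 0.0236). Its other probe set was not called (0.17), and with both averaged the difference was 0.43 and not called (limma adjusted p = 0.0575). The difference read 0.08 with CD3 centring and 0.32 with ICN1 replicate 3 alone (limma adjusted p = 0.310). Leaving out ICN1 replicate 1 or 2 or TEL-JAK2 replicate 2 or 3 ended the call (limma adjusted p from 0.0502 to 0.0781).

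The related genes Pfkfb2 (0.12 ± 0.10) and Pfkfb4 (-0.20 ± 0.11) were not called. Of the phosphofructokinase subunits, Pfkp, the platelet-type subunit, differed by 0.87 ± 0.38 (limma adjusted p = 0.146). The muscle-type Pfkm read -0.34 ± 0.13 without overlap (limma adjusted p = 0.0924), and the liver-type Pfkl -0.62 ± 0.36. The aldolase genes Aldoa (-0.23 ± 0.31) and Aldoc (-0.54 ± 0.19, no overlap) were not called, and neither was Tpi1, triose phosphate isomerase. Tpi1 read 9.72, 11.25, 8.91 and 11.23 in TEL-JAK2, against 11.37, 11.44 and 11.96 in ICN1. The groups did not overlap, yet TEL-JAK2 replicates 2 and 4 lay nearer to the ICN1 arrays than to the rest of their own group. Its difference was -1.32 ± 0.59 (limma adjusted p = 0.154).

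Lower glycolysis, which yields ATP and pyruvate, had 0 of 5 genes called by limma, and 2 with an unadjusted p under 0.05. These were Pgam1, the main phosphoglycerate mutase (-1.06 ± 0.37, limma adjusted p = 0.0816, no overlap), and Pgam2, its muscle form. Pgam2 was the gene nearest to the threshold from outside (-0.53 ± 0.17, limma adjusted p = 0.0606), as Slc2a3 was from inside. Pgk1, phosphoglycerate kinase and a textbook HIF-1 target, differed by -0.22 ± 0.17 with a 95% interval of -0.61 to 0.18. Pkm, pyruvate kinase, differed by -0.30 ± 0.30 and Eno2, an enolase of neurons, by 0.21 ± 0.17.

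Pyruvate and lactate handling had 2 of 7 genes called, both lower. Slc16a1, the lactate and pyruvate transporter MCT1, was lower in TEL-JAK2. It read 9.97, 10.05, 9.38 and 10.73 in TEL-JAK2, against 12.25, 12.62 and 12.99 in ICN1. The highest TEL-JAK2 array lay well below the lowest ICN1 array. The mean was 10.03 ± 0.55 in TEL-JAK2 (SD, n = 4) and 12.62 ± 0.37 in ICN1 (SD, n = 3). The difference of -2.59 ± 0.32 is 6.01-fold lower (limma adjusted p = 0.00152). Its other probe set was also called lower (-1.11, limma adjusted p = 0.0102 over all probe sets). The call held in 18 of 18 alternative settings and with ICN1 replicate 3 alone (-2.96, limma adjusted p = 0.0191). MCT1 is also present on erythroid cells, whose markers were lower in TEL-JAK2 as given above, and their part in this difference was not tested. Slc16a3, the lactate exporter MCT4 and a HIF-1 target, read 4.42, 5.41, 4.64 and 4.60 in TEL-JAK2, against 4.59, 4.19 and 4.85 in ICN1, below the median gene in every array (difference 0.23 ± 0.26).

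**Figure D2:**
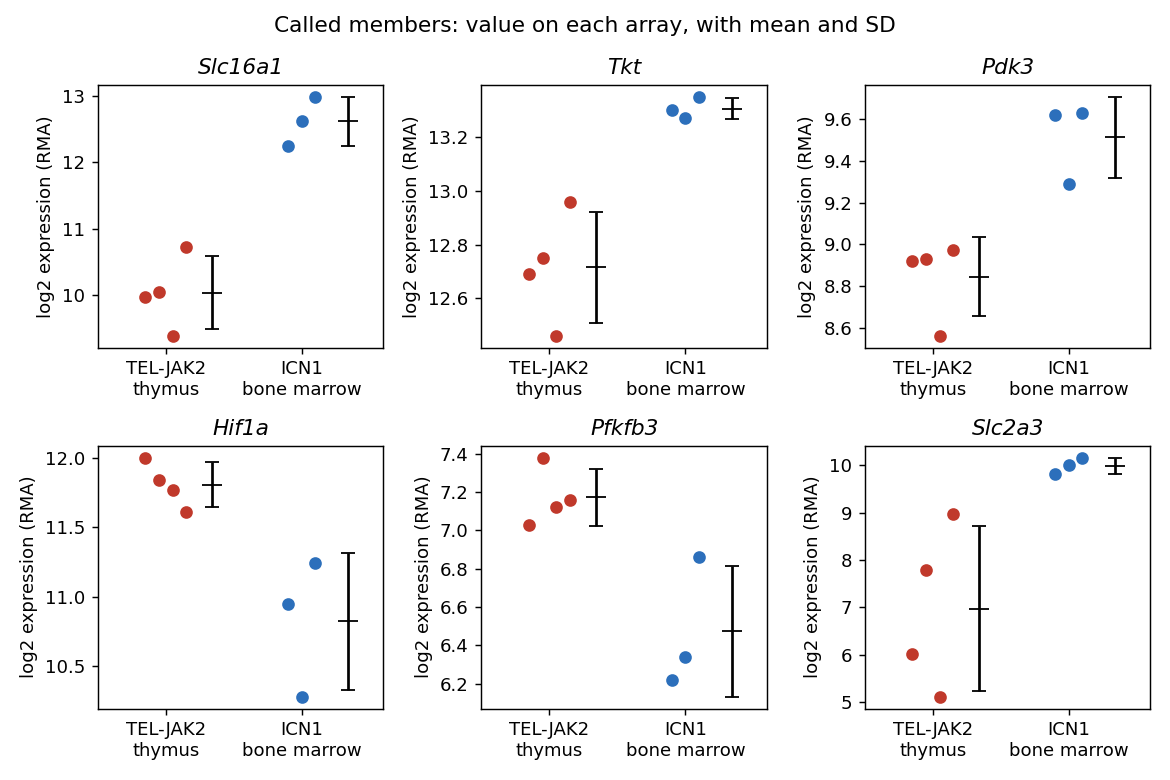
Log2 expression (RMA) of the 6 called genes on each array, with TEL-JAK2 thymus (4 arrays) left of ICN1 bone marrow (3 arrays), and the mean and SD beside each group. The vertical axes differ between panels and do not start at 0. The groups do not overlap in any panel, and the TEL-JAK2 arrays of Slc2a3 run from 5.11 to 8.98.

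Pdk3, a kinase that inactivates pyruvate dehydrogenase in the mitochondrial matrix, was lower in TEL-JAK2. It read 8.92, 8.93, 8.56 and 8.97 in TEL-JAK2, against 9.62, 9.29 and 9.63 in ICN1. The groups did not overlap, and TEL-JAK2 replicate 3 lay below the rest of its group. The means were 8.85 ± 0.19 (SD, n = 4) in TEL-JAK2 and 9.51 ± 0.19 (SD, n = 3) in ICN1, with a difference of -0.67 ± 0.14 or 1.59-fold lower (limma adjusted p = 0.0139). The call was lost without ICN1 replicate 1 (limma adjusted p = 0.0503). It was -0.78 with ICN1 replicate 3 alone (limma adjusted p = 0.0602).

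Its relative Pdk1, a HIF-1 target, went the other way without being called (0.79 ± 0.30, limma adjusted p = 0.0992), and the 3 further probe sets of Pdk1 read 0.99, 1.14 and 0.92, none called. Pdk2 read near the low end of the scale in both groups (4.12 in TEL-JAK2 and 4.08 in ICN1). Ldha, the lactate dehydrogenase subunit that favours lactate and a HIF-1 and MYC target, differed by -0.18 ± 0.10 with a 95% interval of -0.42 to 0.07. Ldhb, the subunit that favours pyruvate, read 9.03, 7.89, 10.51 and 8.39 in TEL-JAK2, against 8.76, 7.95 and 7.38 in ICN1. Its TEL-JAK2 arrays spread over 2.63 log2 and enclosed 2 of the 3 ICN1 arrays (difference 0.93 ± 0.63, limma adjusted p = 0.342).

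Of the 3 measured pentose phosphate genes, Tkt was called. Tkt encodes transketolase of the non-oxidative branch, which links ribose 5-phosphate to glycolysis. It read 12.69, 12.75, 12.46 and 12.96 in TEL-JAK2, against 13.30, 13.27 and 13.35 in ICN1. The ICN1 arrays lay within 0.09 log2 of each other and above all TEL-JAK2 arrays. The means were 12.71 ± 0.20 (SD, n = 4) in TEL-JAK2 and 13.31 ± 0.04 (SD, n = 3) in ICN1. The difference was -0.59 ± 0.13 or 1.51-fold lower (limma adjusted p = 0.0138). The call held in each of the 7 fits without 1 array. The probe set used is of the kind that can cross-hybridize, and without such probe sets the difference was -0.99 (limma adjusted p = 0.00836). The remaining probe set, a dim one, was not called (-0.24). The difference was -0.64 with ICN1 replicate 3 alone (limma adjusted p = 0.112). Taldo1, transaldolase of the same branch, differed by -0.33 ± 0.13 without overlap (limma adjusted p = 0.120), and Pgd, the second NADPH-forming enzyme of the oxidative branch, by 0.19 ± 0.16.

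Among the 5 genes of oxygen sensing and response, Hif1a, the oxygen-regulated subunit of HIF-1, was higher in TEL-JAK2. It read 12.00, 11.84, 11.77 and 11.61 in TEL-JAK2, against 10.95, 10.28 and 11.24 in ICN1. The TEL-JAK2 arrays lay close together and above all ICN1 arrays. The mean was 11.80 ± 0.16 in TEL-JAK2 (SD, n = 4) and 10.82 ± 0.49 in ICN1 (SD, n = 3), and the difference of 0.98 ± 0.23 is 1.98-fold (limma adjusted p = 0.0186). Of its other probe sets, 2 were called higher (1.17 and 0.95) and a dim one was not (0.23). The call was lost without TEL-JAK2 replicate 1 (limma adjusted p = 0.0539) and with CD3 centring (0.36, limma adjusted p = 0.255). Against ICN1 replicate 3 alone it read 0.57 (limma adjusted p = 0.107). HIF-1 is mainly controlled through the stability of the HIF-1 protein, which an mRNA level does not measure.

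The prolyl hydroxylases that mark HIF-1 for destruction were not called, with Egln1 at 0.24 ± 0.17 and Egln3, itself a HIF-1 target, at -0.02 ± 0.25 (95% interval -0.61 to 0.57). The other probe set of Egln1 read -0.70, also not called. Bnip3, a HIF-1 target of mitophagy, read 6.86, 8.42, 6.26 and 8.05 in TEL-JAK2, against 6.07, 6.50 and 7.08 in ICN1. TEL-JAK2 replicates 2 and 4 lay above all ICN1 arrays and the others within their range (difference 0.85 ± 0.54). Ddit4, a stress-induced inhibitor of mTORC1, differed by 0.50 ± 0.29.

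Isoforms of 1 enzyme step were compared within each array, as the log2 value of the first gene minus that of the second. Levels of different probe sets cannot be compared, so only the change of this value between the groups is read. Of 19 pairs in 11 steps, 18 pairs in 10 steps were measured. With 4 and 3 arrays, a two-sided exact permutation test over 35 arrangements cannot go below p = 0.0571. The groups did not overlap in 8 of the 18 pairs, each at exact permutation p = 0.0571 and p = 0.129 adjusted over the 18. Of all single genes, 34.3% did not overlap. No share over other gene pairs was computed, so 8 of 18 is not shown to be unusual. Each of these 8 pairs holds Slc2a3, Pfkp, Pfkfb3, Pdk3 or Slc16a1. In 2 of the 8 the partner (Slc16a3 or Pdk2) read below the median gene on every array and near background, so these 2 add little to the difference of Slc16a1 or Pdk3 itself.

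At the glucose transporters, Slc2a1 minus Slc2a3 was 1.61, 1.05, 2.36 and -0.07 in TEL-JAK2, against -1.78, -2.12 and -1.61 in ICN1. The balance lay 3.07 log2 or 8.42-fold further toward Slc2a1 in TEL-JAK2. At the monocarboxylate transporters, Slc16a1 minus Slc16a3 was 5.55, 4.64, 4.74 and 6.13 in TEL-JAK2, against 7.66, 8.44 and 8.14 in ICN1. Slc16a3 read 4.42 to 5.41 in TEL-JAK2 and 4.19 to 4.85 in ICN1. On the 4 arrays low in Eif2s3y, the Y-linked genes Uty, Eif2s3y and Kdm5d read 3.95 to 4.30, 3.18 to 3.29 and 2.64 to 3.42. The background level thus differs between probe sets, and no fold of balance is given for this pair. Both shifts come mostly from the called gene of the pair, since Slc2a1 and Slc16a3 differed by 0.06 and 0.23.

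At phosphofructokinase the balance lay further toward the platelet-type subunit in TEL-JAK2. Pfkl minus Pfkp was -1.87, -2.51, -2.18 and -2.54 in TEL-JAK2, against -0.16, -1.38 and -0.82 in ICN1 (shift -1.49, 2.81-fold). Pfkm minus Pfkp was -1.45, -2.97, -1.43 and -2.90 in TEL-JAK2, against -0.72, -0.80 and -1.42 in ICN1 (shift -1.21, 2.31-fold). In the second pair TEL-JAK2 replicate 3 and ICN1 replicate 3 nearly met. None of the 3 subunits was called alone.

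At the bifunctional enzymes the balance lay further toward Pfkfb3 in TEL-JAK2. Pfkfb2 minus Pfkfb3 was -0.62, -1.10, -0.60 and -0.72 in TEL-JAK2, against 0.00, -0.13 and -0.42 in ICN1 (shift -0.58, 1.49-fold). Pfkfb3 minus Pfkfb4 was 0.55, 0.68, 0.50 and 0.75 in TEL-JAK2, against -0.68, -0.34 and 0.18 in ICN1 (shift 0.90, 1.86-fold). In both pairs the nearest ICN1 array to TEL-JAK2 was replicate 3.

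At pyruvate dehydrogenase kinase the balance lay away from Pdk3. Pdk1 minus Pdk3 was 1.73, 2.27, 2.34 and 1.08 in TEL-JAK2, against -0.14, 0.68 and 0.65 in ICN1 (shift 1.46, 2.75-fold). Both genes enter this shift, the uncalled Pdk1 with a difference of 0.79 and Pdk3 with -0.67. Pdk2 minus Pdk3 was -4.71, -4.85, -4.29 and -5.04 in TEL-JAK2, against -5.29, -5.52 and -5.50 in ICN1. Pdk2 read 3.93 to 4.27 in TEL-JAK2 and 3.77 to 4.33 in ICN1. That is the level of Uty on the arrays low in Eif2s3y, though above that of Eif2s3y and Kdm5d there. No fold is given, and the pair shows little but Pdk3. Within this step Pdk1 minus Pdk2 overlapped between the groups (shift 0.75, exact permutation p = 0.171).

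**Figure D3:**
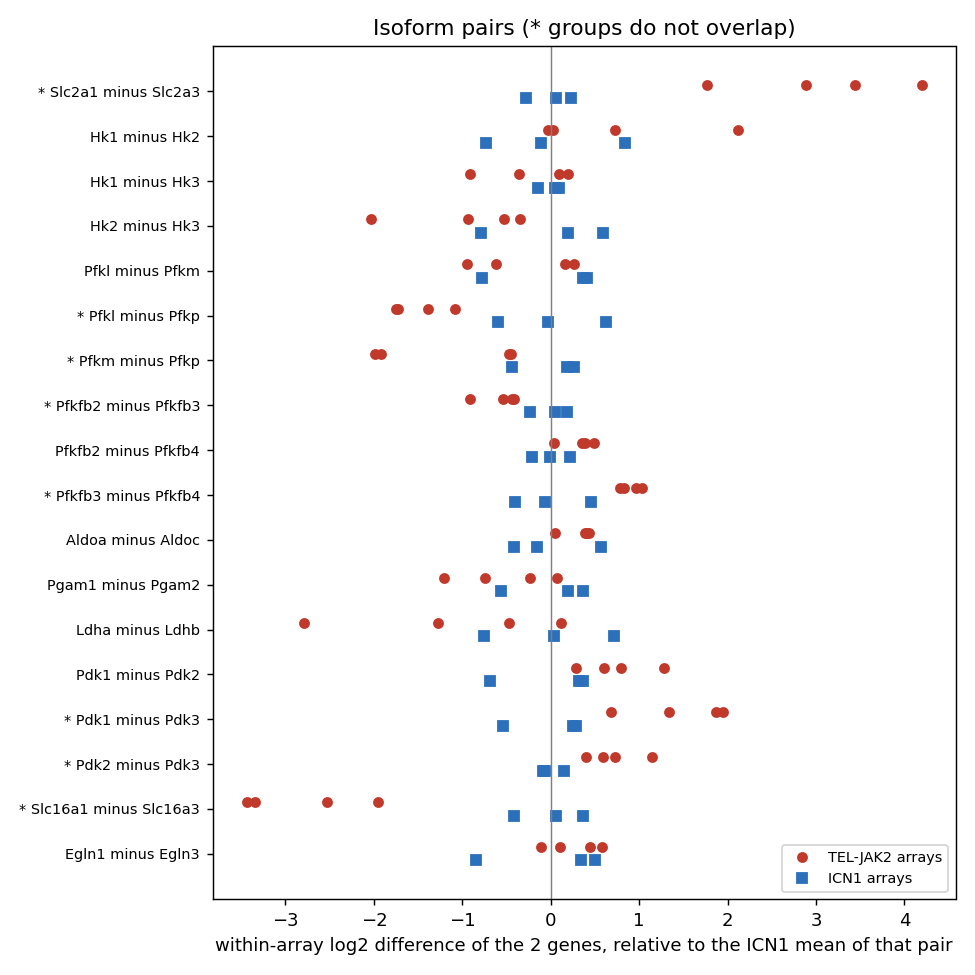
Within-array log2 difference between 2 isoforms of 1 step, plotted relative to the ICN1 mean of the pair, for 18 pairs (circles, 4 TEL-JAK2 arrays; squares, 3 ICN1 arrays). A star marks the 8 pairs whose groups do not overlap, among which Slc2a1 minus Slc2a3 is shifted by 3.07. Slc16a3 and Pdk2 read near background, so pairs with them show little but the other gene.

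The other 10 pairs overlapped between the groups. Ldha minus Ldhb was 3.37, 4.76, 1.85 and 4.17 in TEL-JAK2, against 3.88, 4.68 and 5.36 in ICN1 (shift -1.10, exact permutation p = 0.286). The 3 hexokinase pairs shifted by -0.96 to 0.71, Aldoa minus Aldoc by 0.31, Pgam1 minus Pgam2 by -0.53 and Egln1 minus Egln3 by 0.26. With so few arrays, these pairs are not shown to keep the same balance.

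The 34 genes varied more within each group than most genes did. Most of the 34 lie above the median gene, while all genes include dim ones, whose values RMA compresses near background. Spread and order were not set against genes of like brightness. The median SD was 0.31 log2 in TEL-JAK2 and 0.33 in ICN1, against 0.16 and 0.18 over all genes. In TEL-JAK2, 11 of the 34 (32.4%) spread over more than 1 log2, against 10.2% of all genes. In ICN1 it was 9 (26.5%), against 9.71%. The order of the arrays was alike in many of these genes, a pattern noticed after the values were seen. TEL-JAK2 replicates 2 and 4 were the 2 highest of their group in 21 of 34 genes (61.8%), among them Slc2a1, Slc2a3, Hk2, Pfkp, Tpi1, Pgam1, Pkm and Bnip3, against 19.7% of all genes. ICN1 replicate 3 was the highest of its group in 23 (67.6%), against 40.5% of all genes.

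Markers of monocytes and macrophages had the same order in TEL-JAK2. Replicates 2 and 4 were the 2 highest in 11 of 11 of them, and the mean of the list was 7.14, 8.47, 6.39 and 8.66 in TEL-JAK2 replicates 1 to 4, against 10.25, 10.01 and 8.89 in ICN1. In ICN1 the order did not match, since replicate 3 had the lowest macrophage mean. The part of these cells in the spread was not tested. The heat map of values by array sets this order beside the other arrays.

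**Figure D4:**
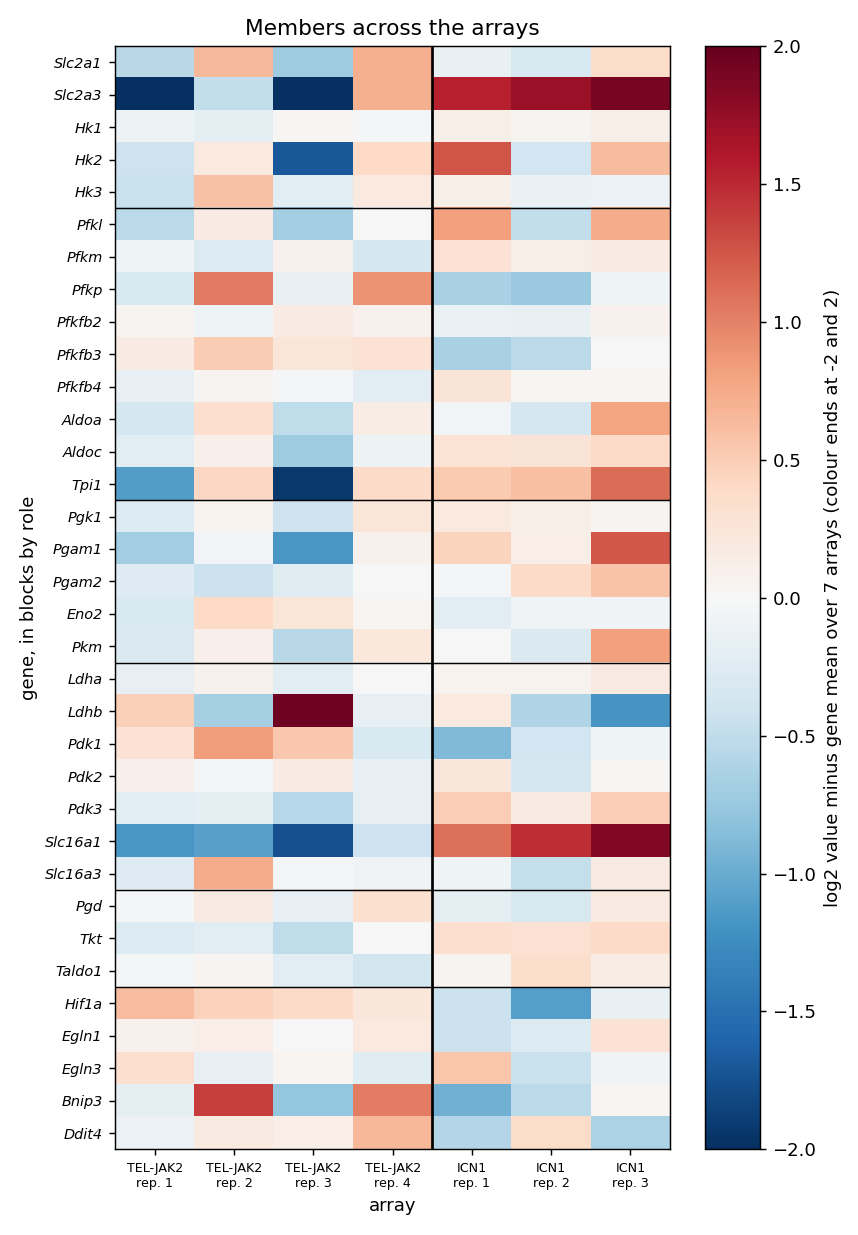
Log2 value of each of the 34 genes (rows, in blocks by role) on each array (columns, 4 TEL-JAK2 left of 3 ICN1) minus the gene's mean over the 7 arrays, with colours ending at -2 and 2. Slc2a3 and Slc16a1 are the rows that separate the groups most, and Ldhb in TEL-JAK2 replicate 3 stands high against most glycolytic rows of that array.

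Related genes outside the list were counted in the same fit. In each of the lists below, most genes had a TEL-JAK2 mean above the median gene. The share called among bright genes alone is not given here, so no list is shown to exceed it. Of 19 measured of 24 listed genes of other glycolytic and glycogen steps, 3 were higher, 3 lower and 13 not called (31.6% called, against 24.1% of all genes). The median difference was 0.13, against 0.04 over all genes. Bpgm, which makes 2,3-bisphosphoglycerate in red cells, read 8.66, 9.16, 8.92 and 8.62 in TEL-JAK2, against 12.77, 13.49 and 11.85 in ICN1. It was 14.6-fold lower (-3.87 ± 0.36, limma adjusted p = 0.000482), beside erythroid markers that were lower by far, as given above. Slc2a4, the insulin-responsive transporter GLUT4, differed by -2.19 ± 0.21 (limma adjusted p = 0.000566). The third lower gene was Pklr, the pyruvate kinase of liver and red cells (-0.83 ± 0.18). The higher genes were Tigar, which lowers fructose 2,6-bisphosphate (0.65 ± 0.12), Gfpt1, which opens the hexosamine pathway (0.88 ± 0.17), and Pygb, a glycogen phosphorylase (0.91 ± 0.19). None of these 3 was called with CD3 centring (differences 0.02, 0.25 and 0.29) or with ICN1 replicate 3 alone. With a gene's probe sets averaged, Tigar (0.315) and Gfpt1 (0.24) were not called (limma adjusted p = 0.103 and 0.108). Of the uncalled genes with the highest means, Ugp2 differed by 0.15 ± 0.11 and Pgm1 by 0.72 ± 0.23 (limma adjusted p = 0.0625). Pgm1 was called with averaged probe sets (0.77, limma adjusted p = 0.0191), without TEL-JAK2 replicate 3 (0.0206) and without dim genes (0.0425).

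Genes of pyruvate entry into mitochondria and its oxidation there included 5 lower, 1 higher and 6 uncalled of 12 measured of 13 listed, with a median of -0.26. That is 50% called, against 24.1% of all genes, and 41.7% lower, against 12.2%. The share called among bright genes alone is not given, and only 3 of these 12 had a TEL-JAK2 mean below the median gene. Without dim genes 5 of the list were called. The list is therefore not shown to exceed the share among bright genes. The lower ones held 3 subunits of the pyruvate dehydrogenase complex, Dld (-1.09 ± 0.13, limma adjusted p = 0.00121), Pdhx (-0.55 ± 0.10) and Dlat (-0.82 ± 0.18). The others were Pcx, pyruvate carboxylase (-0.69 ± 0.15), and the kinase gene Pdk4 (-0.56 ± 0.17), whose groups overlapped. Pdk4 read 3.09 to 3.55 in TEL-JAK2 and 3.54 to 4.06 in ICN1, near background in both groups, so its call says little. Pdp1, the phosphatase that reactivates pyruvate dehydrogenase, was 3.23-fold higher. It read 7.87, 7.46, 8.30 and 7.56 in TEL-JAK2, against 6.02, 6.06 and 6.24 in ICN1 (1.69 ± 0.20, limma adjusted p = 0.00145). Pdha1 (0.20 ± 0.17) and Pdhb (-0.13 ± 0.10), the subunits of the complex's first enzyme, were not called. The call of Pdk4 was lost in 5 of 7 such fits with an array left out (limma adjusted p up to 0.126) and that of Pcx without ICN1 replicate 1 (0.0509). Dlat was not called without probe sets that can cross-hybridize (-0.70, limma adjusted p = 0.0809) or with its probe sets averaged (-0.58, limma adjusted p = 0.0845). With ICN1 replicate 3 alone Dld, Dlat and Pdp1 kept their calls.

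Of 9 other pentose phosphate and ribose genes, all measured, 2 were lower and 7 not called, with a median of -0.01 (22.2% called, against 24.1% of all genes). Rpia, which forms ribose 5-phosphate, differed by -0.94 ± 0.14 (limma adjusted p = 0.00361), and Prps1, which activates it for nucleotide synthesis, by -0.72 ± 0.12 (limma adjusted p = 0.00478). Prps2 (0.05 ± 0.20) and Pgls (-0.12 ± 0.15) were not called.

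Of 22 measured of 23 listed hypoxia genes, 5 were higher, 2 lower and 15 not called, with a median of 0.16 (31.8% called, against 24.1% of all genes). Vegfa, the vascular growth factor induced by HIF-1, read 10.46, 9.77, 10.83 and 9.34 in TEL-JAK2, against 5.33, 4.98 and 5.69 in ICN1. It was 27.2-fold higher in TEL-JAK2 (4.77 ± 0.37, limma adjusted p = 0.000207), with ICN1 below the median gene. Bhlhe40, a repressor that low oxygen and cytokines induce, read 9.89, 10.49, 10.22 and 9.20 in TEL-JAK2, against 6.46, 6.20 and 5.77 in ICN1 (3.81 ± 0.32, limma adjusted p = 0.000304). Both genes kept their call in 18 of 18 alternative settings and with ICN1 replicate 3 alone (4.41 and 4.18).

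Vhl, which degrades hydroxylated HIF-1 (0.97 ± 0.14), Kdm3a, a histone demethylase (0.96 ± 0.20), and Hif1an, the asparagine hydroxylase of HIF-1 (0.85 ± 0.19), were higher. None of these 3 was called with CD3 centring (0.35, 0.34 and 0.23) or with ICN1 replicate 3 alone, and Hif1an lost its call without ICN1 replicate 1 or 2 (limma adjusted p up to 0.0552) and with its probe sets averaged (0.194). Epas1, the HIF-2 subunit, read 6.58, 6.54, 6.40 and 7.33 in TEL-JAK2, against 10.59, 8.46 and 9.71 in ICN1. It was 7.32-fold lower in TEL-JAK2 (-2.87 ± 0.48, limma adjusted p = 0.00538). That direction is opposite to Hif1a, whose call was lost with CD3 centring as given above. Mxi1, an antagonist of MYC, was lower too (-1.07 ± 0.17). The other HIF subunit genes, named after their values were seen, were not called. These were Hif3a (-0.655 ± 0.23, no overlap, limma adjusted p = 0.0801) and Arnt (0.05 ± 0.18). Higd1a (-0.03 ± 0.13) and Fam162a (-0.51 ± 0.23) had the highest means among the uncalled genes, and Higd1a read 0.39 and was called when its probe sets were averaged (limma adjusted p = 0.0285). The targets Car9 (-0.04 ± 0.22) and Adm (-0.25 ± 0.21), named after their values were seen, had means below the median gene in both groups and were not called. Uncalled genes that lay higher, also named after their values were seen, were P4ha2 (1.39 ± 0.42, limma adjusted p = 0.052) and Ero1a (0.75 ± 0.26, no overlap). Over the 22 measured genes, 13 differences were positive and 9 negative.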

How the data were processed

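Total RNA of 7 leukemic cell suspensions was measured on Affymetrix mouse arrays, per the labels. The authors deposited their values on the log2 scale in 1 table with a column for each array, made with RMA per the submitters' processing notes, which name no version or settings. RMA gives all arrays nearly 1 distribution (array medians 5.4 to 5.5), so total RNA cannot be compared, and folds are compressed near background. Of 45037 probe sets, 34945 had 1 symbol in the platform annotation, 932 several and 9160 none. 34741 matched RefSeq on GRCm38.p6.

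Genes were compared as TEL-JAK2 minus ICN1 with limma (version 3.58.1, R 4.3.3; functions lmFit and eBayes, two-sided), with Benjamini-Hochberg adjustment over 18193 genes. Differences carry the standard error of that fit. Isoform pairs were compared with an exact permutation test. The code was tested on simulated data. The number of arrays limits the precision.

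The genes and lists were chosen with earlier results of these data known. Every measured gene of the set was named, with all array values for called genes and non-overlapping isoform pairs. Of each other list, up to 4 called genes with the smallest adjusted p and up to 2 uncalled genes with the highest mean were named, and further called genes to complete counts of 5 or fewer. Further array values (such as those of Slc2a1, Tpi1, Slc16a3, Ldhb and Bnip3) were chosen after the values were seen. Alternatives were other probe set choices, no dim genes, 4 other scalings, 2 variance models, stricter thresholds and the omission of each array. The planned log2 step with an offset was not needed. Figures were drawn with matplotlib 3.10.9.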

Additional observations from a re-analysis of the deposited data

Results flagged for a closer look

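In TEL-JAK2 replicate 3, Pdk3 read 8.56, below 8.92, 8.93 and 8.97 in the other TEL-JAK2 arrays and 9.29 to 9.63 in ICN1, a gap of 0.878 of the group's range. In TEL-JAK2 replicate 1, Aldoa minus Aldoc was 5.62, below 5.99, 5.96 and 6.01 in the other TEL-JAK2 arrays, a gap of 0.872 of the range, while ICN1 read 5.42, 5.16 and 6.15. Both gaps exceed Dixon's 95% critical value for 4 arrays. Of 52 groups of 4 tested, these 2 were past it, and chance passes about 1 in 20.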

How the results depend on the processing

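With CD3 centring, 12197 genes were called (787 higher, 11410 lower), and 19 of the 34 genes (0 higher, 19 lower). The other pentose phosphate list then had 6 calls and the other hypoxia list 12. Against a 1.5-fold difference, 1187 genes were called (515 higher, 672 lower), 1 of the 34 (0 higher, 1 lower), and 2, 2, 0 and 3 in the glycolysis and glycogen, pyruvate entry, pentose phosphate and hypoxia lists. At an adjusted p under 0.01, 2191 genes were called (987 higher, 1204 lower), 1 of the 34 (0 higher, 1 lower), and 3 in the pyruvate list. Averaging the probe sets of each gene left 1 of the 34 higher, Hif1a, and ended the call of Pfkfb3. With ICN1 replicate 3 alone, added after seeing the data, 2596 genes were called (1039 higher), 1 of the 34 (0 higher, 1 lower), 3 in the glycolysis and glycogen list and 3 in the pyruvate list. Without 1 array, 3209 to 4236 genes were called (1524 to 2170 higher), 4 to 8 of the 34 (1 to 3 higher, 3 to 5 lower), and 8 to 12 isoform pairs did not overlap, a count that leaving out an array can only raise.

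None of the 27 called genes of the set and the 4 related lists changed direction under the alternatives run. Called cell type markers and the other called genes of the array were not followed gene by gene. Uncalled ones did. With CD3 centring the differences turned to -0.57 (Slc2a1), -0.55 (Hk3), -0.50 (Pfkfb2), -0.41 (Eno2), -0.58 (Pdk2), -0.40 (Slc16a3), -0.43 (Pgd), -0.38 (Egln1), -0.12 (Ddit4), -0.47 (Ugp2), -0.42 (Pdha1) and -0.58 (Prps2), as the uniform shift of that setting implies. With ICN1 replicate 3 alone they turned to -0.34 (Slc2a1), -0.0268 (Pfkfb2), -0.0106 (Pdk2), -0.0804 (Slc16a3), -0.10 (Pgd), -0.19 (Egln1), 0.0557 (Egln3) and -0.13 (Pdha1). With averaged probe sets they turned to -0.0593 (Pfkfb2), -0.23 (Egln1), -0.0595 (Prps2) and 0.39 (Higd1a). Other probe sets read 0.0533 (Pfkl), -0.20 and -0.18 (Pfkfb2), 0.0095 and 0.11 (Aldoa), -0.19 (Pgd, also without cross-hybridizing probe sets) and -0.70 (Egln1). Over the fits without 1 array, uncalled genes that changed direction ranged from -0.18 to 0.30 (Slc2a1), -0.11 to 0.23 (Hk3), -0.46 to 0.10 (Aldoa), -0.53 to 0.0195 (Pkm), -0.11 to 0.17 (Pdk2), -0.25 to 0.25 (Egln3), -0.0791 to 0.24 (Prps2) and -0.11 to 0.0371 (Higd1a). Higd1a read 0.0053 with array weights and 0.0058 with repeated quantile normalization. The cause was not tested for these. No paired analysis was possible because the replicate numbers follow accession order and pair no arrays.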
